A study of Mus musculus with 198 samples.

Results

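Genes whose symbols start with Dnaja, Dnajb or Dnajc encode co-chaperones with a J domain. Every probe of the array annotated with such a symbol was taken, which gave 59 probes of 39 genes among 25697 probes. A probe counted as detected on an array at a detection p under 0.01. Detection in at least 20% of the arrays of either tissue was required for a comparison of tissues, and 39 of the 59 probes, of 31 genes, met it. For a comparison of strains it was required in both tissues, which left 36 probes of 29 genes. The 20 probes that were not tested include 14 that were detected on no array. Dnajb3, Dnajb7, Dnajb8, Dnajc1, Dnajc5b, Dnajc5g, Dnajc9 and Dnajc11 had no tested probe.

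J proteins bring substrates to Hsp70 chaperones and stimulate their ATPase, so that the Hsp70 closes on the substrate. They place a few Hsp70s at many sites: Dnajb1, the major stress-inducible member, in the cytosol, Dnajc3 and Dnajc10 in the endoplasmic reticulum, and Dnaja3 and Dnajc19 in mitochondria. In neurons the best known are Dnajc5, the cysteine string protein of synaptic vesicles, and Dnajc6 (auxilin), which with Hsc70 strips the clathrin coat from endocytosed vesicles.

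The arrays (Illumina MouseRef-8 v2.0) measured RNA of whole hippocampus and whole striatum from male mice of the Hybrid Mouse Diversity Panel, which holds inbred and recombinant inbred strains. Recombinant inbred strains are fixed mixtures of a pair of parental genomes: B6 and DBA for BXD, B6 and AJ for AXB/BXA, and B6 and C3H for BXH. Hippocampus was measured in 99 strains (30 BXD, 28 AXB/BXA, 11 BXH and 30 other inbred), striatum in 97 (30, 28, 10 and 29), and both in 96. Strains labelled 129X1 in hippocampus and X129X1 in striatum were not paired, although the hippocampus column header also reads X129X1. With them paired, 20 member probes still correlated between the tissues. There was 1 array for a strain in a tissue (2 for B6Cc3, which were averaged), so every spread given here is between strains and none is within a strain. The study also put males of the panel through fear conditioning, and whether the arrayed animals had been tested is not given in the sources used here. Signals are on a log2 scale, normalized over both tissues together where tissues are compared and within each tissue where strains are compared.

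Some arrays stood apart or did not match between tissues. The median rank correlation with the other arrays of the tissue was 0.615 for AXB19b/PgnJ in hippocampus, against at least 0.914 for the rest, and 0.856, 0.890 and 0.919 for SM, NZW and KK in striatum. The striatum array of KK had a mean of 9.15 over 6 striatal neuron markers, where striatum had a median of 12.98 and hippocampus a range of 8.24 to 9.70. Its mean over cortical excitatory markers was the highest of the striatum arrays, at 12.46 (median 9.61). Results are also given without these 4 arrays. AXB19b/PgnJ holds the lowest hippocampus values given below for Dnajb4 ILMN_2614246, Dnajb12, Dnajc2 ILMN_1249242 and Dnajc19 ILMN_3103439. It holds the highest for Dnajc3, Dnajc10 and Dnajc18. In striatum SM holds the lowest for Dnajc19 ILMN_3103439, NZW the lowest for Dnajb6 ILMN_3107377 and KK the highest for Dnajc6 ILMN_2733605. Levels of 355 probes were used to check whether the tissues of a strain matched. These were probes on which at least 90 of 96 strains had the same level in both tissues. Few mismatches in most strains thus follow from the choice. The hippocampus array labelled AXB15/PgnJ shared 98.3% of levels with the striatum array labelled AXB19/PgnJ, and AXB19/PgnJ shared 98.0% with AXB15/PgnJ. With their own labels they differed at 20.6% and 19.2% of probes. Strains were ordered by this share, and those at the top are named. They also include AXB19b/PgnJ (36.3%), BXD42/TyJ (23.4%), SM (20.3%), B6Cc3 (17.2%), NZW (10.1%) and CAST (7.32%). The other 88 strains reached at most 5.63%.

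Promoters are shown for 3 members. Dnajc3 and Dnajc10 are among the members whose signal fell into separate levels across strains, and Dnajb6 held the longest heat shock motif searched. Dnajc18, Dnajb4 and Dnaja4 also had separate levels called and are not shown. RefSeq windows (GRCm38.p6, the reference strain) run from 250 bases before to 50 bases after a start, and 45 of them belong to 32 of the 39 genes. Motifs were searched on both strands. The window of Dnajc3 (chr14:118937682-118937981, plus strand) held the endoplasmic reticulum stress element, CCAAT and CCACG at a fixed distance, in capitals below, which 0.119% of 32851 promoter windows hold. It was in 1 of the 45. TGACGTGG, a site for ATF6 and XBP1, was in 0.676% of promoter windows and in 0 of the 45. The pair of heat shock units GAANNTTC or TTCNNGAA was in 15.1% of promoter windows and in 8 of the 45. These 8 belong to 7 member genes (Dnaja1, Dnaja4, Dnajb4, Dnajb6, Dnajc5g, Dnajc10 and Dnajc27). Capitals mark that pair in the window of Dnajc10 (chr2:80315216-80315515, plus strand). A run of 3 alternating units, which contains the pair, was in 0.603% of promoter windows and in 2 of the 45. Both are windows of Dnajb6, and the window shown is chr5:29735648-29735947 (plus strand, run in capitals). A match is a run of letters and not a tested site.
Dnajc3: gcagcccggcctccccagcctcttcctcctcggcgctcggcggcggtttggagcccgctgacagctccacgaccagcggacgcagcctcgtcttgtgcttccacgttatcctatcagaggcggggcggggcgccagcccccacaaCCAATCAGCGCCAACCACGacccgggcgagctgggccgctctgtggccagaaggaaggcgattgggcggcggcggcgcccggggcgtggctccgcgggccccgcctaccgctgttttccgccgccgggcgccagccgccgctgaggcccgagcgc
Dnajc10: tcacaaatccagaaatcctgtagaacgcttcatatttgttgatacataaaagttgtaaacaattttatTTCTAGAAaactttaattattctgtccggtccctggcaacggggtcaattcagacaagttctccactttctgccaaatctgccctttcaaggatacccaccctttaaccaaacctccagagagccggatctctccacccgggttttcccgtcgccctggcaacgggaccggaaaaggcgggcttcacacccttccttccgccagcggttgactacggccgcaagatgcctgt
Dnajb6: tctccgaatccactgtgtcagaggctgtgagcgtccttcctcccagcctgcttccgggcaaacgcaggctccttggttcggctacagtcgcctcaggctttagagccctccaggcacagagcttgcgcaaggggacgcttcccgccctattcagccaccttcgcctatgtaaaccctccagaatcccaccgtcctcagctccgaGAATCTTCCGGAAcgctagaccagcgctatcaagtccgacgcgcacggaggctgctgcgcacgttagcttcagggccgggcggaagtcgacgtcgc

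The first comparison asked whether the members differ between hippocampus and striatum. At an adjusted p under 0.05 (limma, Benjamini-Hochberg over 12775 probes) and at least 2-fold, 0 of 39 member probes were called, where 7.42% of all probes were (3.89% higher in hippocampus and 3.53% higher in striatum). By the adjusted p alone 12 were higher in hippocampus and 19 in striatum, against 36.7% and 38.6% of all probes, and 8 did not pass. Detected on at least 20% of arrays in striatum alone were 3 of the 39 (Dnaja1 ILMN_2800446, Dnaja2 ILMN_2687961 and Dnajb13 ILMN_2667257), which thus entered through the tissue in which they were higher, so only their levels are given below. Among the 36 detected in both tissues, a restriction chosen after seeing the data, 12 were higher in hippocampus and 16 in striatum, against 35.8% and 38.1% of 11746 probes. The 39 members had a median absolute log2 difference of 0.24 and all probes one of 0.24. All 3 probes of the vesicle members Dnajc5 and Dnajc6 were higher in hippocampus. In the cytosolic and nuclear list 5 of the 20 probes detected in both tissues were higher in hippocampus and 11 in striatum. The endoplasmic reticulum list had 1 probe higher in hippocampus, 3 higher in striatum and 2 that did not pass, and the mitochondrial list 3, 2 and 2.

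**Figure D1:**
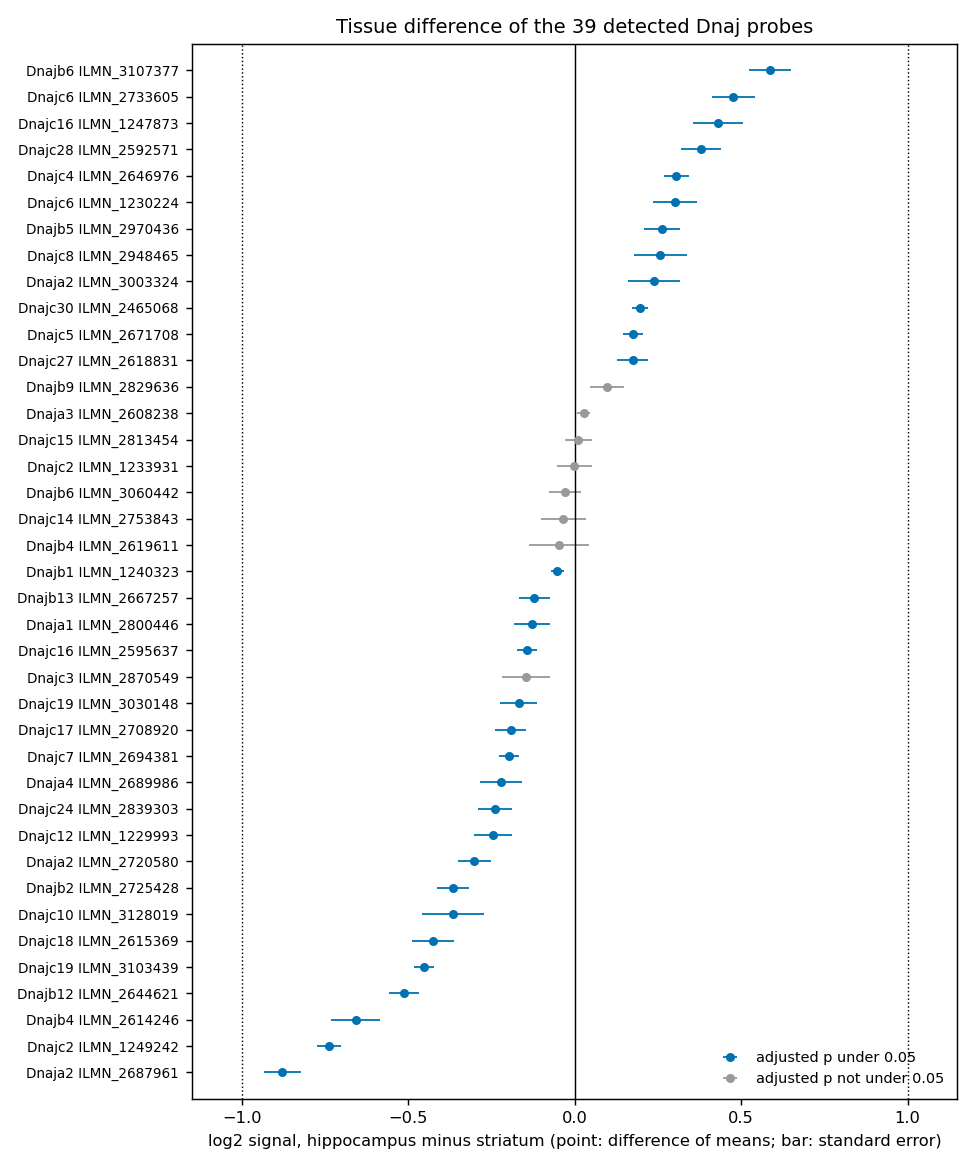
Difference in mean log2 signal, hippocampus (99 strains) minus striatum (97 strains), for each of the 39 tested probes (points) with standard errors from limma (bars) and lines at 2-fold. No point reaches 2-fold, and among the 36 probes detected in both tissues the extremes are Dnajc2 ILMN_1249242 at -0.74 and Dnajb6 ILMN_3107377 at 0.59. Dnaja2 ILMN_2687961, the lowest point, was detected on 3 of 100 hippocampus arrays and entered through striatum alone, as did Dnaja1 and Dnajb13.

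Among cytosolic members, Dnajc2, the J protein of the ribosome-associated complex, differed on 1 of its 2 tested probes. ILMN_1249242 ranged from 8.87 to 10.37 in hippocampus (median 9.67) and from 9.68 to 11.26 in striatum (median 10.42). It was 1.67-fold lower in hippocampus (log2 difference -0.74, SE 0.04, adjusted p = 5.5e-48). The ranges overlapped, but striatum was the higher tissue in 95 of 96 strains. ILMN_1233931, the other probe, had medians of 7.58 and 7.52 and did not pass (adjusted p = 0.994).

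Dnajb4, a cytosolic partner of Hsp70, was split in the same way. ILMN_2614246 ranged from 4.59 to 7.89 in hippocampus (median 6.82) and from 5.34 to 8.31 in striatum (median 7.46). This probe was 1.58-fold lower in hippocampus (log2 difference -0.66, SE 0.07, adjusted p = 1.52e-15). Its ranges overlapped widely, with striatum higher in 89 of 96 strains. ILMN_2619611 of Dnajb4 had medians of 7.17 and 7.30 and did not pass (log2 difference -0.05, SE 0.09, adjusted p = 0.649).

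For Dnaja2, a constitutive partner of Hsc70, the 3 tested probes did not point one way. ILMN_2720580 had medians of 9.13 and 9.44 and was lower in hippocampus (log2 difference -0.30, SE 0.05, adjusted p = 1.46e-08). ILMN_3003324 had medians of 7.09 and 6.81 and was higher in hippocampus (log2 difference 0.24, SE 0.08, adjusted p = 0.00342). ILMN_2687961 lay near background, detected on 3 of 100 hippocampus and 38 of 98 striatum arrays. Its signal ranged from 4.67 to 6.52 in hippocampus (median 5.08) and from 5.40 to 6.82 in striatum (median 6.14), with no fold or test given because the hippocampus values are mostly not above background.

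Dnajb6, which suppresses aggregation of polyglutamine proteins, had the largest difference towards hippocampus. ILMN_3107377 ranged from 9.15 to 11.15 in hippocampus (median 10.73) and from 7.95 to 10.83 in striatum (median 10.29). It was 1.501-fold higher in hippocampus (log2 difference 0.59, SE 0.06, adjusted p = 5.06e-17). The ranges overlapped, and 87 of 96 strains were higher in hippocampus. ILMN_3060442, the other Dnajb6 probe, had medians of 9.14 and 9.17 and did not pass (log2 difference -0.03, SE 0.05, adjusted p = 0.596).

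Dnajb1 was nearly level between the tissues. Its signal ranged from 11.51 to 12.29 in hippocampus (median 11.87) and from 11.61 to 12.32 in striatum (median 11.92), and the ranges almost coincided. The difference of 1.04-fold (log2 difference -0.05, SE 0.02, adjusted p = 0.013) was lower in hippocampus and turned to 0.01 with the authors' processed values. Dnajb2, a neuronal member that binds ubiquitylated clients, had medians of 10.15 and 10.51 and was 1.29-fold lower in hippocampus (log2 difference -0.37, SE 0.05, adjusted p = 4.69e-12), in 90 of 96 strains. Dnajb5, a relative of Dnajb1, had medians of 6.52 and 6.23 and was 1.20-fold higher in hippocampus (log2 difference 0.26, SE 0.05, adjusted p = 5.58e-06). It was detected on 76 hippocampus and 52 striatum arrays. Dnaja1, a constitutive cytosolic member, was near background on its only tested probe, detected on 18 hippocampus and 26 striatum arrays, with medians of 5.95 and 6.03.

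Dnajc6 was higher in hippocampus on both probes. ILMN_2733605 ranged from 8.64 to 13.28 in hippocampus (median 13.02) and from 8.75 to 13.03 in striatum (median 12.54). It was 1.39-fold higher in hippocampus (log2 difference 0.48, SE 0.07, adjusted p = 2.19e-11). In 91 of 96 strains hippocampus was the higher tissue, and the very low minimum in each tissue was that of a single strain described further on. ILMN_1230224 had medians of 13.42 and 13.07 and the same direction (log2 difference 0.30, SE 0.07, adjusted p = 1.48e-05). Dnajc5 had medians of 12.47 and 12.32 and was 1.13-fold higher in hippocampus (log2 difference 0.18, SE 0.03, adjusted p = 3.98e-08), in 72 of 96 strains. Neither Dnajc13, which acts on endosomes, nor Dnajb11 of the endoplasmic reticulum had a probe under its symbol.

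In the endoplasmic reticulum list, Dnajb12, a membrane member with a role in degradation of misfolded proteins, ranged from 4.94 to 8.57 in hippocampus (median 7.67) and from 7.63 to 8.79 in striatum (median 8.19). It was 1.43-fold lower in hippocampus (log2 difference -0.51, SE 0.05, adjusted p = 4.89e-22), in 94 of 96 strains, although the ranges overlapped. The hippocampus minimum of Dnajb12 was that of AXB19b/PgnJ, an array that stood apart. Dnajc10, a disulfide reductase that takes part in degradation, had medians of 10.86 and 11.22 and was lower in hippocampus (log2 difference -0.37, SE 0.09, adjusted p = 0.000254). Dnajc3, an inhibitor of the kinase PERK, had medians of 8.48 and 8.57 and did not pass (log2 difference -0.15, SE 0.07, adjusted p = 0.0556) unless strains were paired (adjusted p = 3.49e-06) or the 4 arrays left out (adjusted p = 0.0277). Dnajb9, which endoplasmic reticulum stress induces, had medians of 10.88 and 10.73 and did not pass (log2 difference 0.10, SE 0.05, adjusted p = 0.0826), but passed without the 4 arrays (adjusted p = 0.00367). ILMN_2595637 of Dnajc16, with medians of 10.08 and 10.21, was lower in hippocampus (log2 difference -0.14, SE 0.03, adjusted p = 4.64e-06). The other Dnajc16 probe, ILMN_1247873, had medians of 6.46 and 5.97 and was called higher there (adjusted p = 1.07e-07), but was detected on only 34 of 98 striatum arrays (60 of 100 in hippocampus).

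Among mitochondrial members, ILMN_3103439 of Dnajc19, a subunit of the protein import motor, ranged from 10.08 to 12.15 in hippocampus (median 11.79) and from 10.97 to 12.51 in striatum (median 12.25). It was 1.37-fold lower in hippocampus (log2 difference -0.45, SE 0.03, adjusted p = 1.49e-33), in 94 of 96 strains. ILMN_3030148 of Dnajc19 had medians of 6.79 and 6.97 and the same direction (log2 difference -0.17, SE 0.06, adjusted p = 0.00407). Dnajc28 had medians of 6.26 and 5.84 and was called higher in hippocampus (adjusted p = 6.74e-09), but it was detected on 56 of 100 hippocampus and 28 of 98 striatum arrays, so most striatum values were not above background and no fold is given. Dnajc4, with medians of 7.89 and 7.59, was 1.24-fold higher in hippocampus (log2 difference 0.31, SE 0.04, adjusted p = 1.42e-13). Dnaja3, the J protein of the matrix, had medians of 11.79 and 11.74 and did not pass (log2 difference 0.03, SE 0.02, adjusted p = 0.215), but passed without the 4 arrays (log2 difference 0.04, adjusted p = 0.0235).

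The remaining probes that were higher in hippocampus were those of Dnajc8, a spliceosome-associated member (0.26 on the log2 scale), the mitochondrial Dnajc30 (0.20) and Dnajc27, which joins a J domain to a small GTPase (0.17). Lower in hippocampus were Dnajc18, a relative of Dnajb12 (-0.43), Dnajc12, a co-chaperone of aromatic amino acid hydroxylases (-0.25), Dnajc24 of diphthamide synthesis (-0.24), Dnaja4 (-0.22), Dnajc7 (-0.20) and Dnajc17 (-0.19). Their adjusted p-values ran from 7.29e-14 for Dnajc30 to 0.00216 for Dnajc8. Dnajb13 of cilia and sperm flagella, detected on 11 hippocampus and 20 striatum arrays, had medians of 5.76 and 5.95. Dnajc14 and Dnajc15 did not pass (adjusted p = 0.662 and 0.805).

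Of 31 genes listed as Hsp70s, exchange factors and further J proteins, 28 had a probe and 23 a tested one. Among their 26 probes detected in both tissues, 10 were higher in hippocampus, 9 higher in striatum and 7 did not pass, against 35.8% and 38.1% of all such probes called. Past 2-fold were 2 of them, where 6.13% of all such probes were, a share near that of the list. Hspa1a, a stress-inducible Hsp70 with a near-identical copy in the genome, had 7.03 ± 0.43 in hippocampus and 5.90 ± 0.51 in striatum (mean ± SD over 99 and 97 strains; log2 difference 1.13, adjusted p = 2.72e-39), and was detected on 95 of 100 and 24 of 98 arrays. Hspa5, the Hsp70 that Dnajc3 and Dnajc10 serve, had 6.43 ± 0.55 and 7.51 ± 0.36 (log2 difference -1.08, adjusted p = 1.61e-37), and was detected on 59 of 100 and 97 of 98 arrays. Neither reached 2-fold in the authors' processed values or in signals that were not background corrected.

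Cell type markers also differed between the tissues. All 6 tested striatal neuron markers were higher in striatum and 4 of 5 hippocampal neuron markers in hippocampus, while 4 of 5 oligodendrocyte markers (median of the list 11.62 in hippocampus and 12.28 in striatum) and 3 of 3 endothelial markers were higher in striatum. Of the other lists, 3 of 5 choroid plexus markers and both tested cortical excitatory markers were higher in hippocampus, astrocyte markers were higher in hippocampus for 2 of 4 and in striatum for 1, 2 of 4 microglia markers were higher in striatum, and 1 of 2 blood and 0 of 2 ependymal markers were higher in hippocampus. The part of cell composition in the differences of the members was not tested, and in whole tissue fewer cells of a type cannot be told apart from less RNA per cell. Hippocampus signals were deposited normalized and striatum signals were not, so tissue and this processing cannot be told apart.

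The second comparison asked whether a strain with a high signal in one tissue had a high signal in the other. Over 96 strains, 20 of 36 member probes correlated positively and 0 negatively (Pearson's r, adjusted p under 0.05 over 11746 probes), against 42.7% and 0.111% of all probes. The median r was 0.289 for the members and 0.188 for all probes. Without the 4 arrays 26 members passed, against 57.5% of all probes. Relatedness of strains was not modelled. Within 30 BXD strains 8 member probes passed, within 28 AXB/BXA 4, within 10 BXH 3 and within 28 other inbred strains 14, against 17.4%, 6.85%, 4.17% and 31% of all probes.

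**Figure D2:**
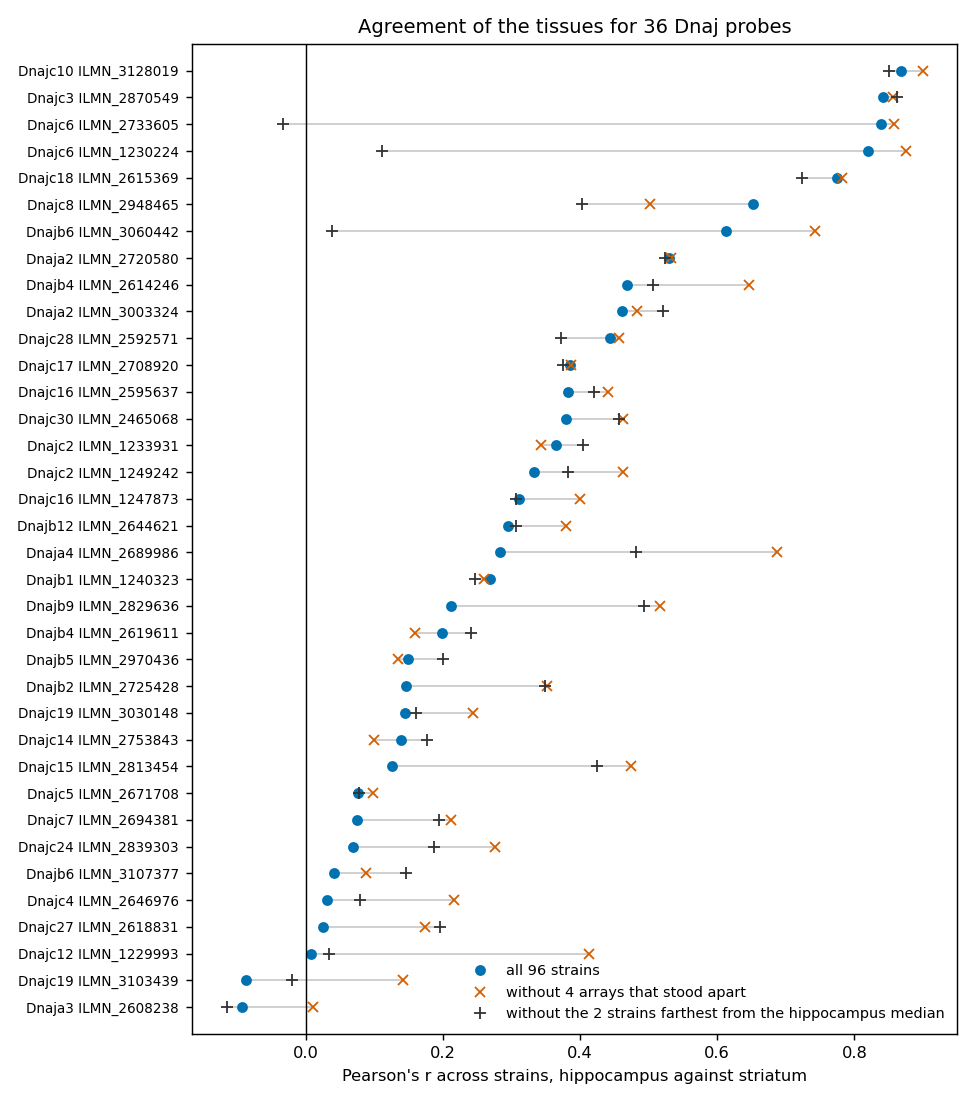
Pearson's r between hippocampus and striatum for 36 member probes over 96 strains, over 92 strains without the 4 arrays that stood apart, and without the 2 strains farthest from the hippocampus median. Both Dnajc6 probes and Dnajb6 ILMN_3060442 drop from above 0.6 to 0.112, -0.0324 and 0.0378 without those 2 strains, and Dnaja4 goes from 0.283 to 0.687 without the 4 arrays.

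Separate levels were sought with a mixture of normal distributions (means at least 3 SD apart, at least 6 strains in the smaller level). They were called for 3 member probes in hippocampus, 6 in striatum and 3 in both, where 6.03%, 8.55% and 4.15% of all probes were. The paper reports known single-base variants (SNPs) in some probes of this array, which might change binding. Whether member probes hold one was not examined, and both tissues were read by the same probes. Altered binding thus cannot be told apart from altered RNA, here and for the lone low strains further on. Dnajc10 had the widest gap. Its probe ILMN_3128019 spanned 8.71 to 12.48 in hippocampus (median 10.78), with 82 strains high (10.83 ± 0.27, SD) and 17 low (9.11 ± 0.22), 3.30-fold apart. It spanned 9.53 to 12.14 in striatum (median 11.29), with 80 strains high (11.32 ± 0.20, SD) and 17 low (9.77 ± 0.19), 2.93-fold apart. No strain lay between 9.55 and 9.94 in hippocampus or between 10.23 and 10.81 in striatum. AJ was low, at 9.08 and 9.56, and so were 16 of 28 AXB/BXA strains in each tissue, while B6, the other parent of that set, was high at 10.67 and 11.21. All BXD and BXH strains were high.

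The level of Dnajc10 was the same in both tissues for 94 of 96 strains (permutation p = 1e-05, adjusted p = 1.33e-05 over 4 probes, where 1e-05 is the lowest that 100000 permutations allow). The exceptions were AXB15/PgnJ and AXB19/PgnJ, the labels that matched each other between tissues. Over the 488 probes of the array with separate levels in both tissues, the median was 93 strains at the same level. On 54 of them all strains were. The count for Dnajc10 was thus near that of such probes in general. Within the 78 strains high in both tissues r was 0.271 (permutation p = 0.0224, adjusted p = 0.0467) and rho 0.331 (permutation p = 0.00322), with p-values adjusted over 7 relations within levels. Within the 16 low strains r was 0.587 (permutation p = 0.0163, adjusted p = 0.0467) and rho 0.444 (permutation p = 0.0867). Without the 2 farthest strains these r were 0.366 and 0.399.

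Dnajc18 was low in another parent. ILMN_2615369 spanned 5.58 to 7.97 in hippocampus (median 7.14), with 87 strains high (7.19 ± 0.26, SD) and 12 low (6.11 ± 0.32), 2.11-fold apart. It spanned 5.98 to 8.19 in striatum (median 7.68), with 84 strains high (7.74 ± 0.20, SD) and 13 low (6.62 ± 0.26), 2.16-fold apart. C3H was low, at 5.64 and 6.68, as were 5 of 11 BXH strains in hippocampus and 5 of 10 in striatum, and B6 was high at 7.09 and 7.68. CE, NOD, NON, PL and RIII were also low in both tissues. The levels nearly met in hippocampus, at 6.50 and 6.58, and there they were not called with the authors' processed values or without background correction. Of 96 strains, 93 kept their level between tissues (permutation p = 1e-05, adjusted p = 1.33e-05), all but AXB19a/PgnJ, BUB and CAST. The median over all probes with levels in both tissues was also 93. Within the 82 high strains r was 0.267 (permutation p = 0.0151, adjusted p = 0.0467) and rho 0.2498 (permutation p = 0.0231). Within the 11 low strains r was 0.622 (permutation p = 0.0267, adjusted p = 0.0467) and rho 0.30 (permutation p = 0.371). Without the 2 farthest strains these r were 0.213 and 0.459.

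Dnajc3 divided the panel most evenly. ILMN_2870549 spanned 7.73 to 9.44 in striatum (median 8.64), with 49 strains high (9.05 ± 0.19, SD) and 48 low (8.17 ± 0.19), 1.84-fold apart. B6 was high, at 9.08, and DBA, AJ and C3H were low, at 8.49, 8.06 and 8.31. All 3 recombinant sets held both levels, with 18 of 30 BXD, 8 of 28 AXB/BXA and 4 of 10 BXH strains low. It spanned 7.33 to 10.26 in hippocampus (median 8.41), with the same parents high (B6 8.83) and low (DBA 8.01, AJ 8.09, C3H 7.77), but levels were called there only without the 4 arrays or with median centring. Without the 4 arrays 52 strains were high and 46 low in hippocampus, 1.84-fold apart. Then 88 of 92 strains were at 1 level in both tissues (permutation p = 1e-05, adjusted p = 1.33e-05), with AXB12/PgnJ, BXD24a/TyJ, BXD38/TyJ and BXD42/TyJ as exceptions. Within the 44 high strains r was 0.156 (permutation p = 0.313, adjusted p = 0.438) and rho 0.180 (permutation p = 0.241). Within the 44 low strains r was 0.116 (permutation p = 0.457, adjusted p = 0.533) and rho 0.110 (permutation p = 0.473). Without the 2 farthest strains these r were 0.117 and 0.195.

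**Figure D3:**
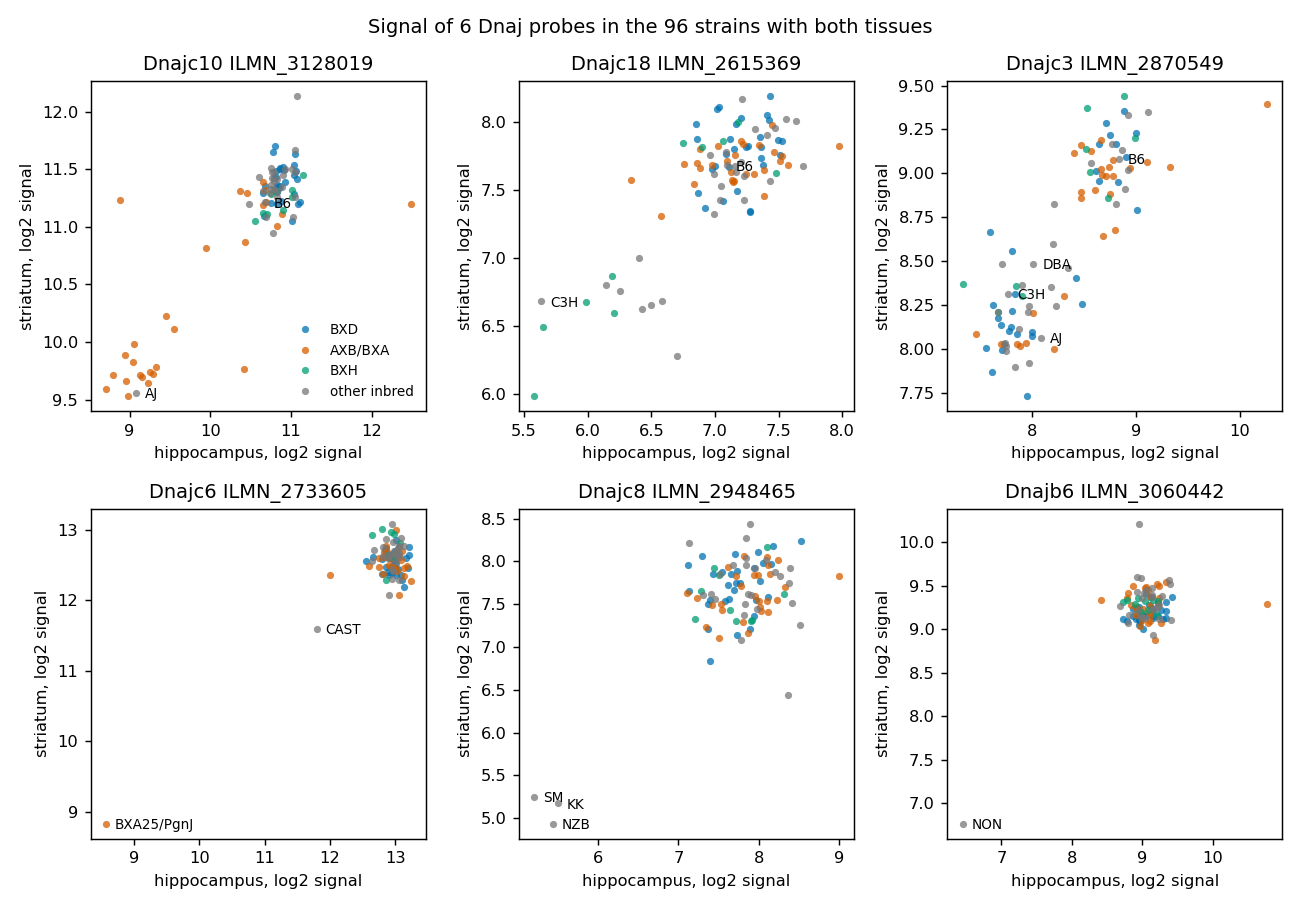
Log2 signal of 6 member probes in hippocampus (horizontal axis) and striatum (vertical axis), 1 point per strain, coloured by strain set, for the 96 strains with both tissues. Dnajc10, Dnajc18 and Dnajc3 form a high and a low cloud, while Dnajc6, Dnajb6 and Dnajc8 have 1, 1 and 3 strains far below a single cloud.

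Some other probes were far below the rest of the panel in very few strains. On 4 of 36 member probes (11.1%) some strain lay at least 4-fold below the median in both tissues, against 4.52% of all probes. BXA25/PgnJ was the only such strain on both Dnajc6 probes. ILMN_1230224 gave 8.94 there in hippocampus against a median of 13.38 (21.7-fold) and 9.36 in striatum against 13.12 (13.6-fold). ILMN_2733605 gave 8.57 and 8.83, 21.04-fold and 13.7-fold below. The next lowest strains on ILMN_1230224 were AXB19b/PgnJ at 12.05 in hippocampus and SM at 12.52 in striatum, and on ILMN_2733605 CAST at 11.80 and 11.59. The parents of the set were not low: on ILMN_1230224 AJ had 13.21 and 13.06 and B6 13.24 and 13.11. In all, 3 of 11746 probes were low in BXA25/PgnJ alone, the pair of Dnajc6 probes and 1 of Cpq, a carboxypeptidase. Over all strains, 312 probes were low in 1 strain only. With probes also low in other strains, 16 were low in BXA25/PgnJ, against a median of 18.5 per strain.

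For Dnajc6 the correlation of the tissues depended on this strain, and on ILMN_2733605 also on CAST. ILMN_1230224 had r = 0.820 (permutation p = 0.0013, adjusted p = 4.82e-23) and rho = 0.132 (permutation p = 0.201). Without BXA25/PgnJ alone, a setting chosen after seeing the data, its r was 0.106 (adjusted p = 0.451). ILMN_2733605 had r = 0.838 (permutation p = 0.00016, adjusted p = 6.08e-25) and rho = 0.00521 (permutation p = 0.959). Its r without BXA25/PgnJ was 0.240 (adjusted p = 0.0453) with rho = -0.0265, and r was -0.0324 without BXA25/PgnJ and CAST. Within the 28 other inbred strains, which hold CAST and not BXA25/PgnJ, r was 0.645 on this probe.

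Dnajb6 ILMN_3060442 was low in NON alone, at 6.45 in hippocampus (median 9.05, 6.09-fold) and 6.77 in striatum (median 9.25, 5.60-fold). The other Dnajb6 probe, ILMN_3107377, was not low in NON, at 10.91 and 10.79. Whether NON has a SNP under either probe was not examined. ILMN_3060442 had r = 0.613 (permutation p = 0.00321, adjusted p = 3.32e-10) and rho = 0.104 (permutation p = 0.313), and r was 0.0378 without NON and AXB19b/PgnJ.

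Dnajc8 was low in 3 strains: SM (5.21 in hippocampus and 5.25 in striatum), NZB (5.44 and 4.94) and KK (5.50 and 5.18), against medians of 7.82 and 7.63. The next strains up were SEA at 6.70 in hippocampus and NZW at 6.44 in striatum. Its tissues had r = 0.652 (permutation p = 1e-05, adjusted p = 8.08e-12) and rho = 0.225 (permutation p = 0.0276), with r = 0.403 without the 2 farthest strains.

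Dnaja2 ILMN_2720580, which had neither separate levels nor lone low strains, had r = 0.530 (permutation p = 1e-05, adjusted p = 2.12e-07) and rho = 0.492 (permutation p = 1e-05), r = 0.523 without the 2 farthest strains and r = 0.532 without the 4 arrays. Dnajb4 ILMN_2614246 had r = 0.469 (permutation p = 1e-05, adjusted p = 8.54e-06) and rho = 0.537 (permutation p = 1e-05), and r was 0.646 without the 4 arrays. Dnaja4, a cytosolic member, had r = 0.283 (permutation p = 0.0169, adjusted p = 0.0147) and rho = 0.497 (permutation p = 2e-05), and its r was 0.687 without the 4 arrays. Its lowest hippocampus value, 5.17, was that of AXB19b/PgnJ. In striatum it had 7 low strains (BTBR, C57L, CBA, I, KK, NZW and SM), a level that was not called without the 4 arrays or with median centring. Dnajb9 had r = 0.212 (permutation p = 0.03, adjusted p = 0.0832) and rho = 0.460 (permutation p = 3e-05) and passed without the 4 arrays (r = 0.516, adjusted p = 6.98e-07).

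For Dnajb1 the tissues had r = 0.269 (permutation p = 0.0079, adjusted p = 0.0212) and rho = 0.201 (permutation p = 0.0494), with r = 0.247 without the 2 farthest strains. Dnajc5 had r = 0.0764 (permutation p = 0.458, adjusted p = 0.602) and rho = 0.0628 (permutation p = 0.542) and did not pass. Neither did Dnaja3, with r = -0.0923 (permutation p = 0.371, adjusted p = 0.515) and rho = -0.102 (permutation p = 0.322).

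A probe of Dnajb4 and a probe of Dnajb6 had levels that the tissues did not share. Dnajb4 ILMN_2619611 spanned 5.28 to 8.02 in hippocampus (median 7.12) with 8 low strains and 4.97 to 8.49 in striatum (median 7.36) with 23, of which 16 were AXB/BXA. Only 71 of 96 strains were at 1 level in both tissues (permutation p = 0.293, adjusted p = 0.293). These levels were not called with the authors' processed values or without background correction. Dnajb6 ILMN_3107377 had 11 low strains in striatum and no levels called in hippocampus. The call in striatum was lost without the 4 arrays, without background correction and with median centring.

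Within each level of Dnajb4, strains were set against Dnajb6 on this pair of probes, which was chosen after its values were seen. In striatum the 74 high strains gave r = 0.615 and rho = 0.640, with r at 0.689 without the 2 strains farthest from the median of Dnajb4. The 23 low strains there gave r = 0.805 and rho = 0.757, with r at 0.671 without the 2 strains farthest from the median of Dnajb4 and 0.635 over the 20 left without the 4 arrays. In hippocampus the 91 high strains gave r = 0.340 and rho = 0.407, with r at 0.372 without the 2 strains farthest from the median of Dnajb4. The 8 low strains gave r = 0.585 and rho = 0.429, with r at 0.0131 without the 2 strains farthest from the median of Dnajb4 and 0.669 over the 7 left without the 4 arrays. These values are a description with no test, since the pair was chosen for them. The median of Dnajb6 was 9.64 in low and 10.46 in high strains of striatum, and 10.09 and 10.66 in hippocampus. C3H was lowest on both probes in hippocampus, at 5.28 and 9.07. KK and NZW were the lowest pair of strains on both in striatum. The share of probes detected on the arrays had a median of 43.05% in low and 44.2% in high strains of striatum, with lowest values of 35.2% and 41.2%. In hippocampus the medians were 42.5% and 43.7%. Across the 23 low strains of striatum this share had r = 0.523 with Dnajb4 and r = 0.461 with Dnajb6, and 0.225 and 0.213 without SM, NZW and KK. Across the 8 low strains of hippocampus it was 0.201 and -0.283, and 0.774 and 0.691 without AXB19b/PgnJ, and across the 91 high strains there 0.0581 and 0.204. Across the 74 high strains of striatum r was 0.00 and 0.129. Its part in the relation was not tested.

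**Figure D4:**
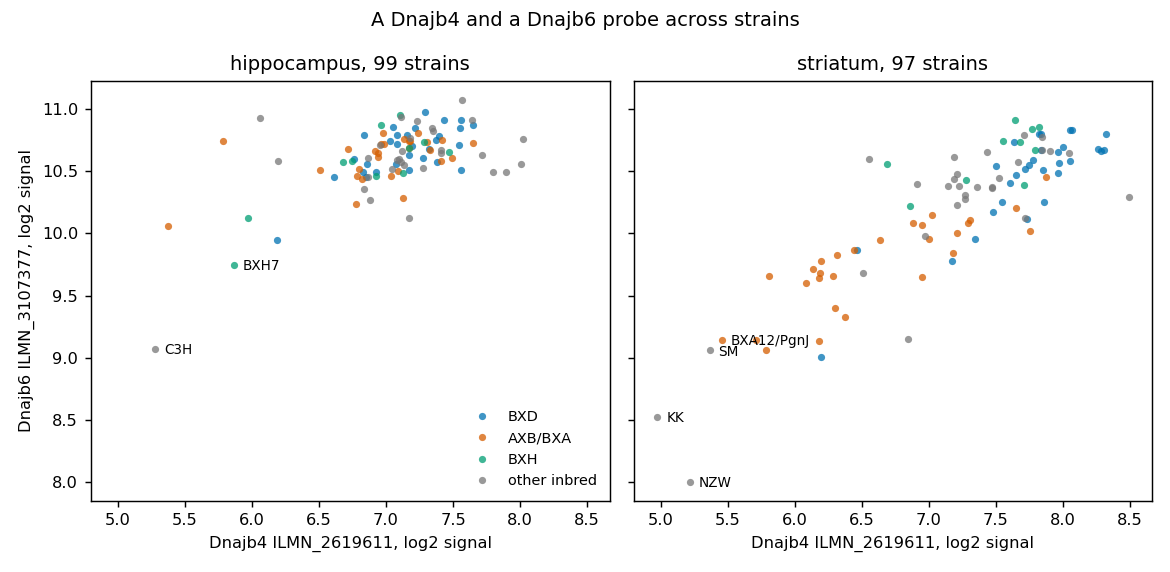
Log2 signal of Dnajb4 ILMN_2619611 (horizontal axis) and Dnajb6 ILMN_3107377 (vertical axis), 1 point per strain, in hippocampus (99 strains) and striatum (97 strains), coloured by strain set. The points form a band in striatum with KK and NZW at its lower end, and a looser cloud in hippocampus with C3H lowest.

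The third comparison asked whether probes of 1 gene ranked the strains alike. There were 7 pairs of member probes, of which 4 correlated positively in hippocampus and 5 in striatum, and 0 and 1 negatively. Among 3701 pairs of all genes 63.3% and 64.9% were positive and 9.81% and 7.67% negative. The Dnaja2 probes ILMN_2720580 and ILMN_3003324 had r = 0.621 (permutation p = 1e-05, adjusted p = 2.46e-11) and rho = 0.734 (permutation p = 1e-05) in hippocampus. They had r = 0.763 (permutation p = 1e-05, adjusted p = 6.15e-19) and rho = 0.756 (permutation p = 1e-05) in striatum. Without the 2 farthest strains r was 0.768 and 0.740. These probes thus ranked the strains alike and differed in the sign of the tissue difference.

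The Dnajc6 probes had r = 0.901 (permutation p = 0.00018, adjusted p = 1.13e-35) and rho = 0.175 (permutation p = 0.0842) in hippocampus. They had r = 0.877 (permutation p = 1e-05, adjusted p = 6.46e-31) and rho = 0.594 (permutation p = 1e-05) in striatum. Without the 2 farthest strains r was 0.0417 and 0.471, so the relation in hippocampus rested on those strains. Without BXA25/PgnJ alone, a setting chosen after seeing the data, r was 0.374 and 0.516. The Dnajb6 probes had r = -0.128 (permutation p = 0.15, adjusted p = 0.247) and rho = -0.166 (permutation p = 0.0995) in hippocampus. They had r = -0.237 (permutation p = 0.0261, adjusted p = 0.028) and rho = -0.208 (permutation p = 0.0412) in striatum, a negative call that was lost without the 4 arrays (r = -0.175, adjusted p = 0.121). The Dnajb4 probes had r = 0.170 (permutation p = 0.0922, adjusted p = 0.119) and rho = 0.0708 (permutation p = 0.487) in hippocampus and r = 0.0385 (permutation p = 0.71, adjusted p = 0.75) and rho = -0.0755 (permutation p = 0.463) in striatum, and passed in neither tissue.

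For the Dnajc19 pair there was r = 0.227 (permutation p = 0.0267, adjusted p = 0.0334) and rho = 0.259 (permutation p = 0.00997) in hippocampus and r = 0.615 (permutation p = 1e-05, adjusted p = 6.79e-11) and rho = 0.334 (permutation p = 0.00101) in striatum, and r was 0.308 and 0.2996 without the 4 arrays. For the Dnajc16 pair there was r = 0.343 (permutation p = 0.00121, adjusted p = 0.000894) and rho = 0.128 (permutation p = 0.209) in hippocampus and r = 0.244 (permutation p = 0.0156, adjusted p = 0.0231) and rho = 0.215 (permutation p = 0.0338) in striatum. Both of its calls were lost without the 4 arrays (r = 0.152 and 0.178). For the Dnajc2 pair there was r = 0.135 (permutation p = 0.183, adjusted p = 0.222) and rho = 0.125 (permutation p = 0.215) in hippocampus and r = 0.411 (permutation p = 3e-05, adjusted p = 5.69e-05) and rho = 0.327 (permutation p = 0.00116) in striatum, and only striatum passed. Without the 2 farthest strains r was 0.194 and 0.311 for Dnajc19, 0.160 and 0.209 for Dnajc16, 0.124 and 0.310 for Dnajc2, 0.117 and -0.0703 for Dnajb4 and -0.143 and -0.179 for Dnajb6.

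The fourth comparison asked whether the strain sets differed. In hippocampus 4 of 36 member probes did (limma F test, Benjamini-Hochberg over 11746 probes), where 18.5% of all probes did, and in striatum 11 of 36, where 49.5% did. Without the 4 arrays both counts were 14, against 31.9% and 57.4%. Dnajc10 had the smallest p in both, with 10.89 ± 0.13 (SD, 30 strains) in BXD and 9.79 ± 0.91 (SD, 28 strains) in AXB/BXA in hippocampus (adjusted p = 2.98e-09). In striatum it had 11.38 ± 0.16 (SD, 30 strains) and 10.38 ± 0.72 (SD, 28 strains) (adjusted p = 8.5e-11). Dnajc18 was lowest in BXH, with 6.55 ± 0.66 (SD, 11 strains) in hippocampus (adjusted p = 0.00167) and 7.18 ± 0.73 (SD, 10 strains) in striatum (adjusted p = 0.000371).

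Dnajc28 was highest in BXD, with 6.42 ± 0.24 (SD, 30 strains) in hippocampus (adjusted p = 0.00216) and 6.20 ± 0.37 (SD, 30 strains) in striatum (adjusted p = 1.33e-06). It was detected on 56 of 100 hippocampus and 28 of 98 striatum arrays, so most striatum values were not above background. Dnajb5 was called in hippocampus alone (adjusted p = 0.0233), highest in BXH at 6.72 ± 0.31 (SD, 11 strains). In striatum Dnajc2 ILMN_1249242 was highest in AXB/BXA, at 10.78 ± 0.18 (SD, 28 strains) against 10.41 ± 0.19 (SD, 30 strains) in BXD (adjusted p = 8.97e-10). Dnajb4 ILMN_2619611 was lowest there, at 6.61 ± 0.65 (SD, 28 strains) against 7.73 ± 0.47 (SD, 30 strains) (adjusted p = 6.1e-07). Dnajb6 ILMN_3107377, Dnajc30, Dnajc5, Dnajc6 ILMN_1230224, Dnaja2 ILMN_2720580 and Dnajc15 were the others called in striatum, with adjusted p-values from 4.13e-06 to 0.0425.

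Genes that varied like Dnajb1 were chosen in hippocampus and tested in striatum. The arrays of both tissues are of the same strains, so a genotype shared by strains recurs in striatum and the test is not independent of it. The part of shared or linked genotypes in these r was not tested. The 5 with the highest r to Dnajb1 over 99 hippocampus strains were Herpud1, Zfp330, Nfil3, Tmem107 and Atg5, with r from 0.352 to 0.381. Herpud1, a stress-induced membrane protein of the endoplasmic reticulum, had r = 0.386 over 97 striatum strains (permutation p = 0.00017, adjusted p = 0.00085 over 5) and rho = 0.404 (permutation p = 8e-05), and r was 0.374 without the 2 farthest strains. Atg5 (r = 0.269, permutation p = 0.00738, rho = 0.260, permutation p = 0.0103) and Nfil3 (r = 0.259, permutation p = 0.0105, rho = 0.268, permutation p = 0.00808) passed with an adjusted p of 0.0175 each. Zfp330 passed by r (0.234, permutation p = 0.0208, adjusted p = 0.026) but not by rho (0.201, permutation p = 0.0478, adjusted p = 0.0597). Tmem107 did not pass (r = 0.159, permutation p = 0.121, rho = 0.111, permutation p = 0.277). For heat shock genes, r to Dnajb1 in hippocampus and striatum is given without a test. It was 0.0574 and 0.408 for Hspa1a, -0.0273 and 0.00566 for Hsp90aa1, and -0.0184 and 0.0914 for Hsph1. For Stip1 it was 0.0191 and 0.0591. The probes of Hspa8 had -0.0472 and 0.0352 (ILMN_1260103) and 0.0243 and 0.0102 (ILMN_2918479). The choice was not stable: without the 4 arrays Herpud1 was the only 1 of them among the 5 again, and by rho 0 were.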

How the data were processed

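RNA of whole hippocampus (100 arrays) and striatum (98 arrays) was compared. The authors deposited, for each probe, an intensity from BeadStudio together with its detection p-value. In hippocampus 100% of these signals equalled the normalized series values, and in striatum 0.0763% did (relative tolerance 1e-04). The normalized series values, also intensities that the authors deposited, served as an alternative.

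Signals were background corrected by normexp with detection p-values (offset 16), quantile normalized and put on the log2 scale with limma 3.58.1 in R 4.3.3. Correlations, levels and 100000 permutations (two-sided) were computed in Python 3.11.15 with numpy 2.4.6. Adjusted p-values of correlations over all probes or pairs of probes come from the normal-theory test of Pearson's r, so they can lie below the permutation p printed beside them, whose smallest value is 1e-05. A mixture was called where the Bayesian information criterion fell by over 10. Simulated data served to test only part of the steps, and no outcome of those tests is given here. Per array, 22.4% to 49.5% of probes were detected in hippocampus and 35.2% to 46.4% in striatum, and the number of arrays limits the precision. Strain relatedness was not modelled.

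Members, lists and tests were chosen with earlier results of these data known. Values are given for the 5 member probes with the largest tissue difference in each direction, the 5 highest tissue correlations, all with separate levels, all genes with several tested probes, the 3 smallest p-values of each strain set test and a list of well known members. Dnajc8 and the pair of Dnajb4 and Dnajb6 were singled out after their values were seen. Genes like Dnaja1 were not sought because its probes were detected in too few arrays, so 5 and not 10 relations were tested.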

Additional observations from a re-analysis of the deposited data

Results flagged for a closer look

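The difference between tissues depended on the strain set for 12 of 39 member probes (limma F test on the difference of each of 96 strains, adjusted p under 0.05 over 12775 probes), where 22.8% of all probes did so. Without the 4 arrays that stood apart, 18 member probes did, against 38.3% of all probes. Each of the 12 is listed here because its tissue difference was itself tested between groups of strains.

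Dnajb6 ILMN_3107377 had mean log2 differences, hippocampus minus striatum, of 0.38 in BXD, 1.01 in AXB/BXA, 0.02 in BXH and 0.58 in other inbred strains (adjusted p = 0.000116). Dnajb4 ILMN_2619611, whose tissue difference over all strains did not pass, had -0.48 in BXD, 0.44 in AXB/BXA, -0.56 in BXH and 0.12 in other inbred strains (adjusted p = 0.00015), so that its sign differed between the sets, and its mean in other inbred strains was -0.08 without SM, NZW and KK. That of Dnajb6 ILMN_3107377 was 0.37 without them. Dnajc2 ILMN_1249242 was lower in hippocampus in all 4 sets, most in AXB/BXA at -0.91 and least in BXH at -0.46 (adjusted p = 0.00191).

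Dnaja3 ranged from -0.06 in other inbred strains to 0.15 in BXH (adjusted p = 0.00664), and its mean in other inbred strains was -0.02 without SM, NZW and KK. Dnajc30 was highest in AXB/BXA at 0.31 (adjusted p = 0.00842). Dnajc28 was also called and highest in AXB/BXA (adjusted p = 0.0134). Most of its striatum values were not above background, so no size is given. Dnajc19 ILMN_3030148 was lowest in BXD at -0.45 (adjusted p = 0.00923). Dnajb12 and Dnaja2 ILMN_2720580 were lowest in AXB/BXA at -0.74 and -0.46 (adjusted p = 0.0133 and 0.025). Dnajc5, Dnajc27 and Dnajb5 had their lowest means in AXB/BXA too, at 0.02, -0.06 and 0.04 (adjusted p = 0.0145, 0.033 and 0.0485). The Dnajc27 mean turned to 0.06 over 27 strains without AXB19b/PgnJ, whose hippocampus value on this probe was 6.95, and remained the lowest of the 4 sets. Without CAST, Dnajb5 no longer passed (adjusted p = 0.051).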

How the results depend on the processing

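With no fold threshold the count of member probes that differed between tissues was 31 and not 0, and that of partner probes 20 and not 2, which was 0 with processed values of the authors and 0 where no background was corrected. Dnajb1 turned to 0.0103 with the authors' processed values. Median centring moved the median of all probes to -0.07. The tissues agreed for 20 probes, and for 8 within BXD, 4 within AXB/BXA and 3 within BXH, where fewer strains were tested. Within BXH r was -0.0433 for Dnajb12, -0.318 for Dnajb6 ILMN_3060442, -0.111 for Dnajc28 and -0.147 for Dnajc6 ILMN_2733605, which was -0.107 within BXD, and Dnajb6 ILMN_3060442 was -0.00594 within AXB/BXA. Separate levels in hippocampus numbered 1 and not 3 under each of these alternatives, processed values and no background correction. Probe pairs in hippocampus numbered 2 and not 4 by Spearman's rho, and the Dnajc19 pair had r = -0.00329 there with the authors' processed values. Strain sets in hippocampus differed for 14 and not 4 probes without the 4 arrays. Of the 5 genes most like Dnajb1, chosen anew each time, 2 and not 4 passed without the 4 arrays and 2 by rho, with 1 and 0 of the genes shared. The cause was not tested.

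With strain as a replicate block, which pairs the tissues of 1 strain, 0 member probes passed 2-fold, 12 were higher in hippocampus and 20 in striatum. Dnajc3 was the probe gained. The slide as a block was not run because the array files used here do not give it. There is 1 array per strain and tissue, so differences between single strains have no replicate check beyond the other tissue.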
